A study of Mus musculus with 30 samples.

Results

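The genes described here are 36 genes of glycolysis and of the response to low oxygen, taken by symbol from the 25611 gene entries of one table of read counts. They cover glucose uptake, the steps from glucose phosphorylation to lactate export, the control of pyruvate entry into mitochondria, and the hypoxia-inducible factor with its sensors and targets. All 36 members were found in the table, and all 36 passed the filter on low counts that left 14808 genes for testing. Members are matched by gene name alone.

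The cells were dendritic cells grown from mouse bone marrow in medium with FLT3L, the ligand of the receptor Flt3, at 200 ng/ml for 6 to 7 days. They came from wild-type mice (WT) or from mice labelled as Rubcn knockout (KO). Rubcn encodes Rubicon, a protein of the autophagy machinery that also acts in the coupling of LC3 to phagosomes. Each genotype was left untreated, was given OVA (the usual abbreviation of ovalbumin, a model antigen) for 30 min or 4 h, or was given apoptotic Jurkat cells for 30 min or 4 h. Jurkat is an established human T-cell leukaemia line, so those cultures held human as well as mouse cells. This makes 10 groups of 3 libraries, all from FLT3L cultures; the untreated cultures are the control of every treatment, and the labels give no control for adding cells as such. The labels do not say whether the 3 libraries of a group came from separate mice or cultures, so p-values here measure only the spread between these libraries.

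Glycolysis splits glucose into pyruvate, which is either reduced to lactate and exported or passed to the mitochondrial pyruvate dehydrogenase complex. Hypoxia-inducible factor 1 (HIF-1) is a transcription factor whose alpha subunit is hydroxylated by the EGLN prolyl hydroxylases and then degraded when oxygen is present; in low oxygen, and in activated immune cells, it accumulates and raises many glycolytic genes. Dendritic cells that meet a microbial stimulus are known to raise glycolysis within minutes to hours.

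HIF-1 binds a short core motif, written ACGTG or GCGTG, which reads CACGT or CACGC on the other strand. The 250 bases before the annotated start were read from RefSeq (GRCm38.p6, the same build as mm10) for 34 of the 36 members; Ndrg1 and Slc2a3 had no entry. The 6 windows below belong to members with some of the larger changes in either direction and to Bnip3, which has the most matches of these. Each is written 5′ to 3′ on the strand of its gene, with the motif in capitals on either strand.
Slc2a6, chr2:27027999-27028248, minus strand, 4 matches: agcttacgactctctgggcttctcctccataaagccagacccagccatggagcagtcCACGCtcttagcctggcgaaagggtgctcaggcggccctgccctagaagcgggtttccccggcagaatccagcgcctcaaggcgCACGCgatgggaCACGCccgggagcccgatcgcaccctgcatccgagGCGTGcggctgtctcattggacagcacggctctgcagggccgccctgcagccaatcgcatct
P4ha1, chr10:59323046-59323295, plus strand, 3 matches: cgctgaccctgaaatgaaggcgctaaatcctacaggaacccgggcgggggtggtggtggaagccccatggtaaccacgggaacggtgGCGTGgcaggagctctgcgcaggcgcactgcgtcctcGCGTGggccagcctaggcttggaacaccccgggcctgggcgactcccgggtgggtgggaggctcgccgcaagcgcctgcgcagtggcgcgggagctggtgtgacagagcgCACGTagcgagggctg
Eno2, chr6:124769674-124769923, minus strand, 0 matches: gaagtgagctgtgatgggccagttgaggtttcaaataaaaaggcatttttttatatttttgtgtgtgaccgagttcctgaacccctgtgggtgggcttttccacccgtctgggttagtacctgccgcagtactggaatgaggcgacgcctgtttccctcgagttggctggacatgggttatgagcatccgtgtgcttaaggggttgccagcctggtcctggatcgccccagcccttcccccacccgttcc
Egln1, chr8:124949255-124949504, minus strand, 2 matches: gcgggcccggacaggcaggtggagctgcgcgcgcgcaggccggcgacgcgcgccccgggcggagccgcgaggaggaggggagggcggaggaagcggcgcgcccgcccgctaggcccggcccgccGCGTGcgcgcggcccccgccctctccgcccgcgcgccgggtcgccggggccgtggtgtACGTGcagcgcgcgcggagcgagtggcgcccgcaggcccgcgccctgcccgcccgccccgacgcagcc
Ankrd37, chr8:45999851-46000100, minus strand, 4 matches: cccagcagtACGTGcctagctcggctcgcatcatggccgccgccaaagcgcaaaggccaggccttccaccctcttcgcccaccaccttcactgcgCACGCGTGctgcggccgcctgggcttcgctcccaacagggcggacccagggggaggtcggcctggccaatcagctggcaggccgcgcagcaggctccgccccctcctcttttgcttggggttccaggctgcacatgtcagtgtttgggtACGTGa
Bnip3, chr7:138909507-138909756, minus strand, 5 matches: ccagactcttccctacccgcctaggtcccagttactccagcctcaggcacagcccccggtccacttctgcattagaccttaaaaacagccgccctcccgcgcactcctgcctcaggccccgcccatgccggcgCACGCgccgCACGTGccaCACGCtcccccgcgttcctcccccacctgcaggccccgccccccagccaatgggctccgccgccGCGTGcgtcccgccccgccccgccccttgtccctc
In Bnip3 the palindrome CACGTG holds the motif once on each strand and was counted as 2 matches. CACGTG is also the core of the E-box that other factors read; it occurred in 12.5% of the 48 entries of members and in 6.02% of all 32851 entries.

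At least 1 match was present in 31 of the 34 members (91.2%). The share was 41.5% of all 27025 genes with an entry and 58.8% of the 11355 of them that were tested. A gene was counted if the window of any of its annotated starts held a match. By window, 39 of the 48 entries of members (81.25%) and 38.6% of all 32851 entries held one. Vegfa had 2 matches in the window chr17:46025164-46025413 and 0 in the window chr17:46032378-46032627. Many members are textbook HIF-1 targets, so their choice and the motif are not independent. The motif did not separate the directions described below: it was present in 21 of 22 members that rose after 4 h with Jurkat cells in WT (95.5%) and in 8 of 9 that fell (88.9%). Eno2, the member with the largest rise, has no match; this says only that these letters are not in this window.

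Libraries held 9.73 M to 51.6 M counts assigned to genes, with a median of 44.9 M, and the members took 0.432 to 0.528% of them. The shallowest library was KO OVA 30 min replicate 3. Levels are CPM, a library's counts of a gene set to a fixed library total, after TMM scaling, which sets the bulk of genes level between libraries; the TMM factors were 0.765 to 0.842 in the 6 libraries of Jurkat cells at 4 h and 1.03 to 1.07 in the others. Without treatment Rubcn stood at 98.9 CPM in WT cells and at 72.8 CPM in KO cells, a log2 difference of -0.44, and between -0.24 and -0.35 in the treated conditions. Transcript remained in the KO libraries, and the position of the deletion is not in the labels, so this is only a partial check of the genotype. Dendritic markers were present in both genotypes: Flt3 at 567 and 554 CPM, Itgax at 486 and 501 CPM and Zbtb46 at 88.7 and 81.0 CPM in untreated WT and KO. KO Jurkat 4 h replicate 2 stood apart from its group: the 45S ribosomal RNA precursor Rn45s took 3.90% of its counts, against 0.0949 to 0.384% in the other 29 libraries. Its counts differed from those of its group mates by a chi-square of 129 to 134 per degree of freedom, against at most 16.6 in any other pair of a group. That sum includes Rn45s itself, so it is not separate from the Rn45s share. Counts of calls in the KO Jurkat 4 h group are therefore given with and without it. Leaving it out moved the log2 change from untreated KO cells by a median of 0.029 and at most 0.19 (Ankrd37, -1.49 to -1.30) over the 36 members, and changed the sign of 1, Slc16a1, which was not called. In the direct difference from WT it moved members by at most 0.193, and no family share below by more than 1.46 percentage points.

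Before treatment Ldha, Pkm, Aldoa, Gpi1 and Gapdh were the most abundant members per length. In untreated WT cells Ldha, the muscle-type subunit of lactate dehydrogenase, stood at 153 CPM per kb of exon, Pkm (pyruvate kinase) at 124, Aldoa (aldolase) at 122, Gpi1 (glucose phosphate isomerase) at 86.4 and Gapdh at 84.6. Transporters, hexokinases and phosphofructokinases lay well below these: Slc2a6 at 23.0 CPM per kb, Hk2 at 18.6, Slc2a1 at 12.9 and Pfkp at 12.2. Eno2, the enolase best known from neurons, was near the bottom at 1.10 CPM per kb. The common enolase Eno1 was counted at only about 1 CPM in every group, 0.193 CPM per kb in untreated WT. In the deposited table an entry named Eno1b with 0 counts in all 30 libraries covers 98.9% of the Eno1 interval (chromosome 4, 150237197 to 150248873); how reads over both entries were assigned is not given in the sources used here, and nothing is read from Eno1.

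After 4 h with apoptotic Jurkat cells nearly all members had changed in WT cells, some up and some down. Glucose transporters Slc2a1 and Slc2a6, all 3 hexokinases, Pfkp and Pfkl, Pfkfb3, Pgk1, Eno2, the lactate exporter Slc16a3, Hif1a and the HIF targets Vegfa, Ndrg1 and P4ha1 rose (Hk1 not under total counts), with Eno2 up 11.3-fold and Slc2a6 up 7.5-fold. Slc2a3, Gpi1, Pfkm, Pfkfb4, Aldoc, Pdk1, Egln1, Egln3, Bnip3 and Ankrd37 fell. In all, 33 of 36 members passed edgeR's quasi-likelihood test, 23 higher and 10 lower, at a false discovery rate (FDR, the p adjusted by Benjamini-Hochberg over the 14808 genes) under 0.05. The background was 79.5% of all genes, 38.9% higher and 40.6% lower, so a large share of calls is not particular to these genes. Their median log2 difference was 0.46, against -0.02 over all genes; 32 members, and 79.4% of all genes, had no overlap between treated and untreated libraries. In KO cells 31 members passed, 20 higher and 11 lower, against 78.5% of all genes (37.5% higher, 41% lower), with a median of 0.42 against -0.03. Both genotypes called 30 members, all in the same direction (20 higher, 10 lower). These are 90.9% of the WT calls and 96.8% of the KO calls. Each genotype was set against its own untreated libraries. The share of all genes called in both genotypes was not counted. With 79.5% and 78.5% of all genes called, a large overlap need not be particular to the members. Without KO Jurkat 4 h replicate 2 the KO count was 30, with Ldha lost. In bulk RNA, fewer cells of a type and less RNA per cell cannot be told apart.

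These directions depend in part on the scaling. When libraries were scaled by total counts instead of TMM, the median of all genes in WT moved from -0.02 to -0.42 and in KO from -0.03 to -0.37, and the share of all calls that were higher went from 48.9% to 29% in WT and from 47.7% to 29.2% in KO. The members then split 18 higher to 15 lower in WT and 18 to 16 in KO. Gapdh, Hk1, Pdha1 and Slc16a1 changed sign in WT under total counts. In WT 18 higher and 10 lower calls held under every alternative in which the gene was tested, and 18 and 10 in KO. Ankrd37, one of the lower calls, was not tested with the stricter filter. Calls that held were not counted over all genes.

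**Figure D1:**
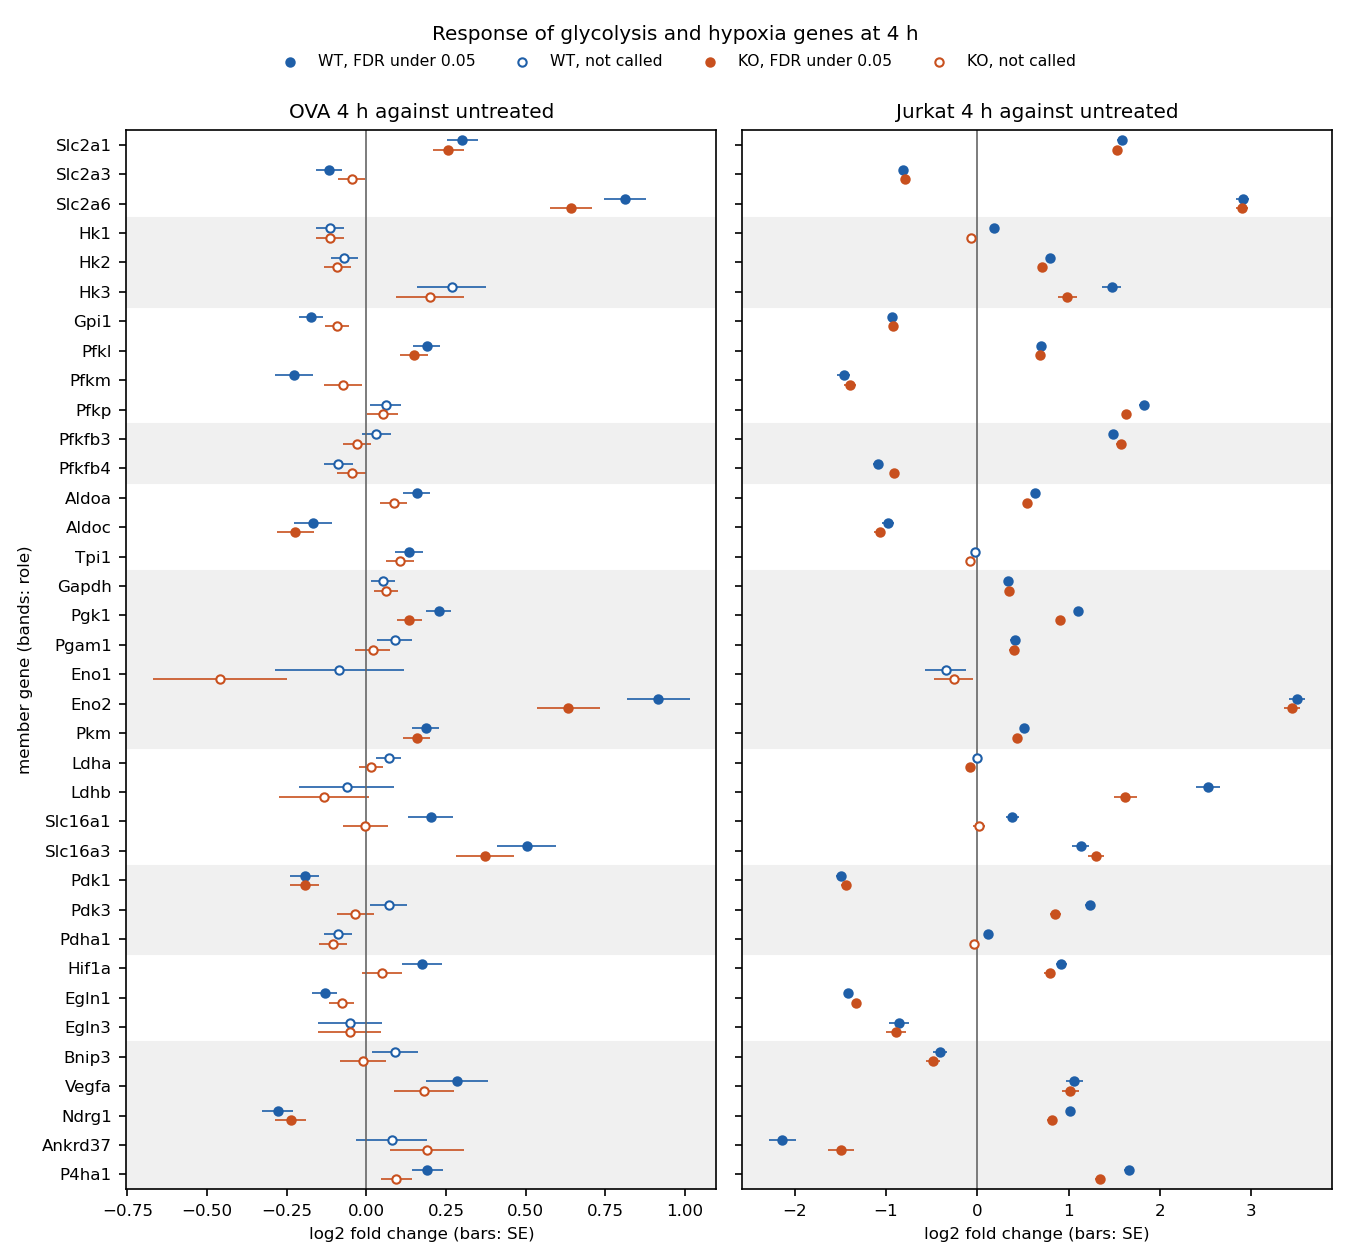
Log2 change of each of the 36 members after 4 h against untreated cells of the same genotype (points: edgeR estimate, filled where FDR is under 0.05; bars: standard error), with OVA (left) and Jurkat cells (right) on axes of different range, WT in blue and KO in orange. With Jurkat cells the values run from -2.14 for Ankrd37 to 3.50 for Eno2 in WT; with OVA the largest rise is 0.92. Gapdh, Hk1, Pdha1 and Slc16a1 change sign in WT with Jurkat cells, and Slc16a1 in KO, when libraries are scaled by total counts.

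Transcripts of the glucose transporters did not move in 1 direction. Slc2a6 (GLUT6; chromosome 2, 27021365 to 27027998, minus strand), a transporter of intracellular membranes, stood at 70.7, 75.2 and 75.7 CPM in the untreated WT libraries and at 510.5, 574 and 578 CPM after 4 h with Jurkat cells. In KO cells it went from 62.4, 70.6 and 69.2 CPM to 517, 482 and 512 CPM. Every treated library lay far above every untreated one in both genotypes, and the log2 rise was 2.91 (SE 0.069, FDR 7.92e-25) in WT and 2.90 (SE 0.069, FDR 9.58e-25) in KO. Slc2a1 (GLUT1), the main inducible transporter of the plasma membrane, went from 45.6, 43.9 and 45.8 to 132, 142 and 132 CPM in WT and from 48.5, 44.2 and 45.1 to 140.1, 124 and 135 CPM in KO. Its groups did not overlap, and it rose 3-fold in WT and 2.90-fold in KO. Slc2a3 (GLUT3), a high-affinity transporter, moved the other way, from 94.8, 97.5 and 101 to 55.5, 57.7 and 53.6 CPM in WT and from 93.4, 93.4 and 92.8 to 54.4, 50.6 and 55.9 CPM in KO, a fall by 0.82 and 0.80 on the log2 scale.

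The 3 hexokinases, which trap glucose in the cell as glucose 6-phosphate, did not respond alike. Hk3 went from 48.3, 45.5 and 43.4 to 118, 142 and 120.0 CPM in WT and from 66.3, 50.2 and 49.5 to 118, 105 and 107 CPM in KO. Its log2 rise was 1.47 (SE 0.11, FDR 2.77e-13) in WT and 0.99 (SE 0.11, FDR 1.31e-09) in KO. Hk2, a hexokinase that can bind mitochondria and is a known HIF-1 target, rose from a mean of 111 ± 4.3 to 193 ± 7.0 CPM in WT (SD, n = 3) and from 106 to 174 ± 9.0 CPM in KO. Neither gene overlapped between treated and untreated cells. Hk1, the hexokinase most tissues keep on, differed little: 74.7 ± 3.1 against 84.6 ± 2.6 CPM in WT, called higher (log2 0.18) but lower under total counts (-0.225), and 76.4 ± 2.5 against 73.1 ± 2.8 CPM in KO, not called.

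At the committed step of glycolysis 2 phosphofructokinase genes rose and 1 fell, without a change in their order of level. Pfkp, the platelet type, went from 159, 164 and 167 to 537, 634 and 569.6 CPM in WT and from 153, 154 and 153 to 504, 439.7 and 481 CPM in KO, 3.54-fold and 3.10-fold. Pfkm, the muscle type, went from 15.6, 16.9 and 17.2 to 5.69, 5.86 and 6.46 CPM in WT and from 18.6, 18.5 and 18.0 to 7.01, 7.57 and 6.39 CPM in KO. No library of the treated groups overlapped the untreated ones for either gene. Pfkl, the liver type, rose from 61.5 to 100 CPM in WT (means; log2 0.70) and from 64.2 to 104 CPM in KO (log2 0.69).

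The enzymes that make and break fructose 2,6-bisphosphate, the strongest activator of phosphofructokinase, also split. Pfkfb3, the form with high kinase activity, stood at 199.9, 200.0 and 208 CPM in untreated WT and at 542, 614 and 546 CPM after Jurkat cells, and in KO at 179, 172 and 175 and then 523, 516 and 523 CPM. Its log2 rise was 1.49 (SE 0.046) in WT and 1.57 (SE 0.046) in KO. Pfkfb4 fell in both genotypes, from 46.3, 46.5 and 46.4 to 21.8, 22.5 and 20.9 CPM in WT and from 43.3, 45.7 and 44.5 to 25.3, 22.4 and 23.4 CPM in KO. Of their shared counts per kb, Pfkfb3 held 73.8% in untreated WT and 94.4% after Jurkat cells, and 71.8% and 93.4% in KO.

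Family shares of this kind compare genes within a library and do not depend on how libraries are scaled. Among the glucose transporters, Slc2a6 went from 46.6 ± 0.81% to 78.8 ± 1.1% of counts per kb in WT (SD, n = 3) and from 44.7% to 77.6% in KO, while Slc2a3 went from 27.3% to 3.51% and from 27.4% to 3.66%. Among phosphofructokinases Pfkp went from 46.3% to 72.0% in WT and from 43.1% to 66.8% in KO, and Pfkm from 18.8% to 3% and from 20.7% to 3.96%. Such shares show unequal change within a family and not which gene changed.

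**Figure D2:**
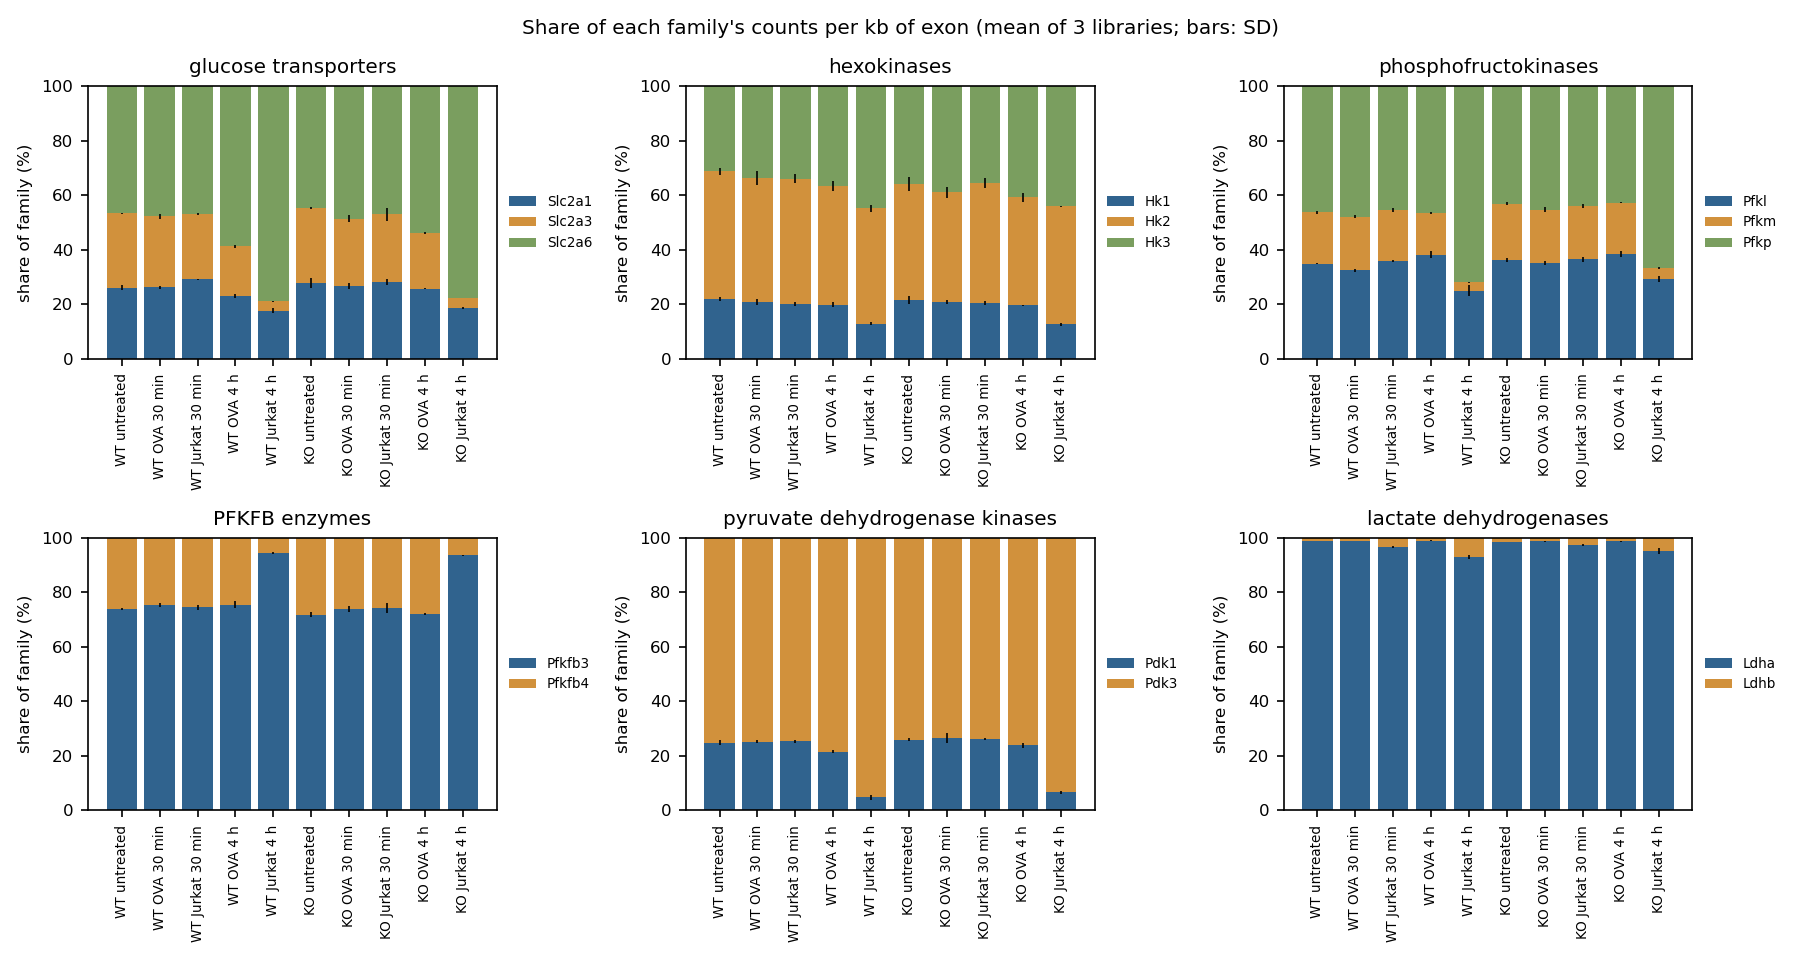
Share of each family's counts per kb of exon held by each gene, in the 10 groups (mean of 3 libraries; bars: SD), for glucose transporters, hexokinases, phosphofructokinases, PFKFB enzymes, pyruvate dehydrogenase kinases and lactate dehydrogenases. In both genotypes the 4 h Jurkat groups stand apart, with Slc2a6 at 78.8% and 77.6% and Pfkfb3 at 94.4% and 93.4% in WT and KO.

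From aldolase to pyruvate kinase, members that passed the test rose, apart from Aldoc; Gapdh changed sign in WT under total counts. Aldoa rose from 432, 455 and 470.4 to 703, 697 and 696 CPM in WT (log2 0.63), whereas Aldoc, the brain-type aldolase, fell from 20.5, 22.8 and 23.8 to 11.3, 12 and 10.6 CPM (log2 -0.98). Pgk1 (phosphoglycerate kinase) rose from 65.0, 68.0 and 64.1 to 139, 137 and 145 CPM in WT and from 68.1, 67.6 and 67.6 to 127, 132 and 122 CPM in KO. Pgk1 shares 53.9% of its 50-base words with transcripts of other genes, so its counts may be split with a copy. Pkm rose by 0.51 in WT and 0.44 in KO on the log2 scale. Tpi1 (triose phosphate isomerase) was not called in either genotype, with means of 116 and 114 CPM in WT and 125 and 118 CPM in KO.

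Eno2 (chromosome 6, 124760053 to 124769673, minus strand) had the largest fold change of the members. It stood at 4.63, 5.07 and 5.82 CPM in untreated WT and at 61.7, 54.7 and 59.7 CPM after 4 h with Jurkat cells, and at 5.86, 5.22 and 5.29 and then 57.5, 61.4 and 59.8 CPM in KO. All treated libraries lay far above all untreated ones. The log2 rise was 3.50 (SE 0.090, FDR 4.81e-24) in WT and 3.45 (SE 0.089, FDR 5.74e-24) in KO. Per kb of exon it reached 12.5 CPM in WT, still below Pfkp at 43.3 and Slc2a6 at 173.

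Transcripts for lactate production and export showed no common direction. Ldha was the same before and after Jurkat cells in WT (491, 523 and 503 against 499, 506 and 510.4 CPM, log2 -0.00, not called), and in KO it was called lower by a small margin (log2 -0.09, FDR 0.0465) that 9 of the alternatives lost, the one without KO Jurkat 4 h replicate 2 among them. Slc16a3 (MCT4), the lactate exporter induced by HIF-1, rose from 10.8, 11.5 and 12.1 to 26.4, 22.9 and 26.2 CPM in WT and from 12.3, 12.7 and 10.8 to 29.8, 30.6 and 27.6 CPM in KO. Slc16a1 (MCT1), a carrier for lactate in either direction, went from 16.5 ± 0.58 to 21.5 ± 1.4 CPM in WT, called higher but -0.0163 under total counts, and from 19.8 ± 1.3 to 20.1 ± 1.2 CPM in KO, not called and -0.321 under total counts. Ldhb, the heart-type subunit, rose in both genotypes and is described after the T-lineage markers.

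The gatekeepers of pyruvate dehydrogenase went in opposite directions. Pdk1, a kinase that switches the complex off and is a textbook HIF-1 target, fell from 45.8, 46.3 and 43.0 to 17.4, 14.6 and 15.9 CPM in WT and from 47.0, 46.6 and 44.6 to 17.2, 17.2 and 16.4 CPM in KO. Pdk3, a kinase of the same family, rose from 43.3, 46.8 and 44.7 to 96.9, 115 and 105 CPM in WT and from 43.1, 44.7 and 41.9 to 83.0, 71.7 and 79.8 CPM in KO. Treated and untreated libraries were fully separate for both kinases. Pdha1, the catalytic subunit they act on, differed by 0.12 in WT, a call lost under 5 of the alternatives and turned to -0.283 by total counts, and by -0.03 in KO, not called.

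Members of the oxygen-sensing pathway did not move as one group either. Hif1a, the HIF-1 alpha subunit, rose from 120.4, 100 and 101 to 195, 219.6 and 193 CPM in WT (log2 0.92, SE 0.063) and from 114, 102 and 103 to 176, 182 and 194 CPM in KO (log2 0.79, SE 0.063). Egln1, the main oxygen-sensing prolyl hydroxylase, fell from 73.7, 78.8 and 79.3 to 30.9, 28.7 and 27.5 CPM in WT (log2 -1.41, SE 0.042) and from 77.9, 81.1 and 81.9 to 32.0, 31.6 and 32.1 CPM in KO (log2 -1.33, SE 0.041). Neither gene overlapped between treated and untreated groups. Egln3, a hydroxylase that is itself raised by HIF-1 in many cells, fell from 7.11 ± 0.11 to 3.91 ± 0.50 CPM in WT.

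Of the 5 HIF targets outside glycolysis, 3 rose and 2 fell in each genotype. P4ha1, a collagen prolyl hydroxylase, went from 57.1, 58.7 and 59.0 to 177, 202 and 173 CPM in WT and from 62.3, 57.6 and 55.9 to 154, 143 and 149 CPM in KO. Vegfa, the vascular growth factor, went from 23.0, 22.8 and 23.0 to 50.9, 44.9 and 47.9 CPM in WT, and Ndrg1 from 73.4, 77.3 and 79.4 to 146, 166 and 154 CPM. In KO, too, no treated library overlapped an untreated one for these 3 genes. Ankrd37, a small ankyrin-repeat protein often used as a marker of HIF-1 activity, went from 3.36, 3.64 and 3.45 to 0.997, 0.748 and 0.601 CPM in WT and was 1.01 ± 0.26 CPM in KO after 2.83 ± 0.19 CPM. Bnip3, a mitophagy receptor, fell by 0.41 in WT and 0.48 in KO on the log2 scale; 47.2% of its 50-base words occur in other genes.

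**Figure D3:**
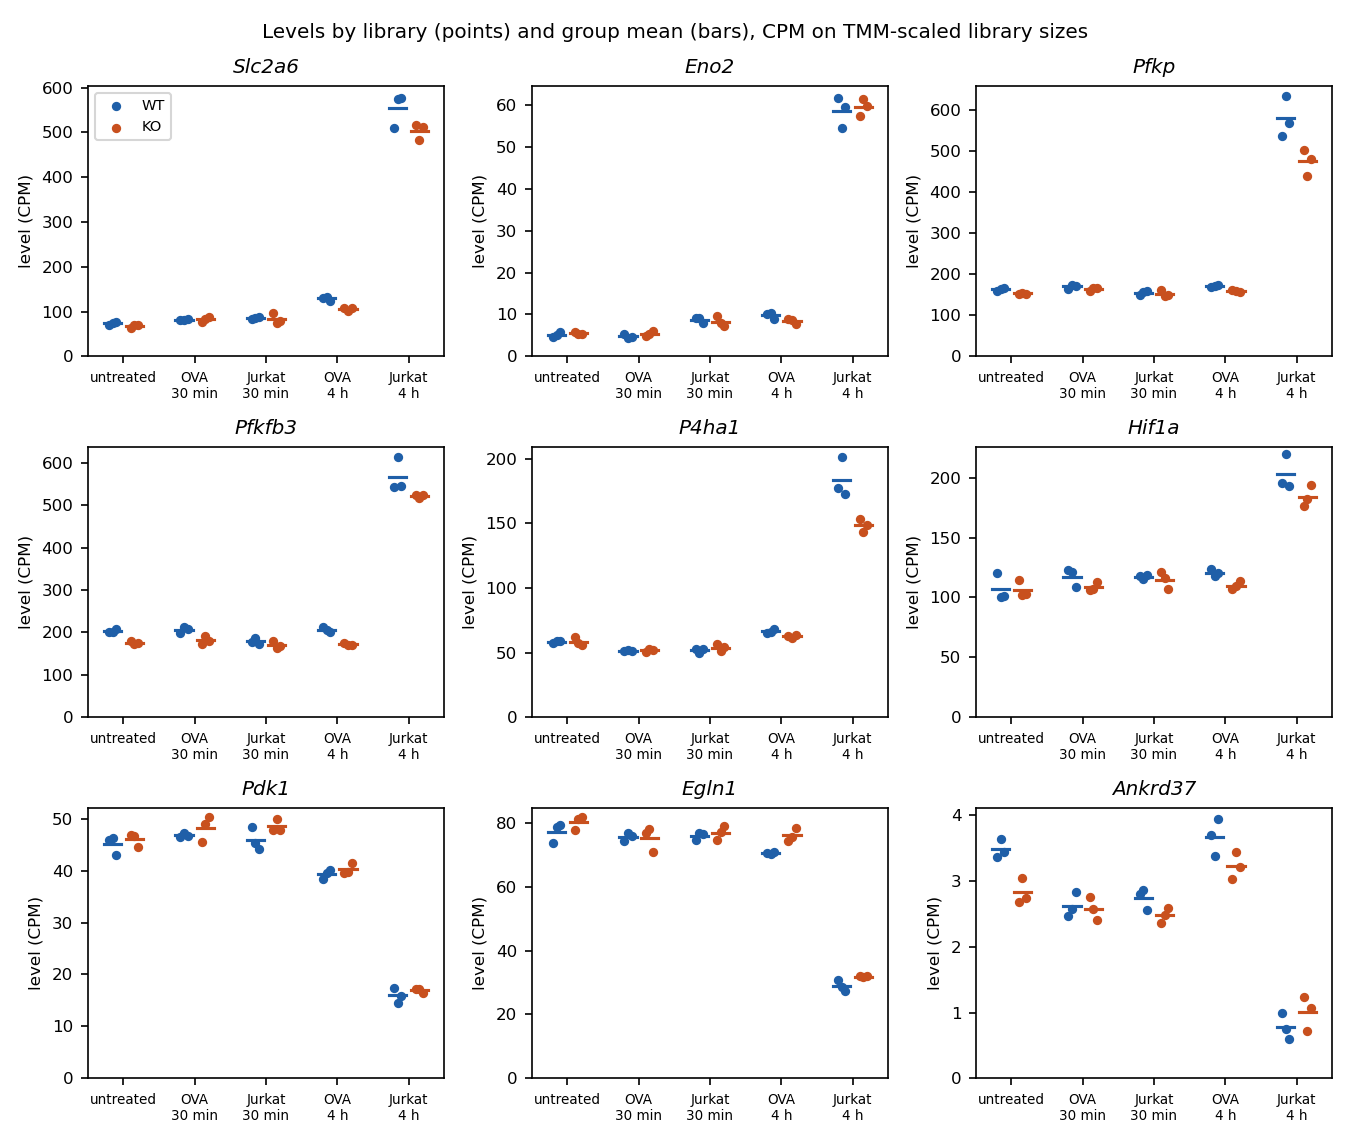
CPM (linear axes from 0) of 9 members in each of the 30 libraries (points) with group means (lines), by condition, WT in blue and KO in orange. Slc2a6, Eno2, Pfkp, Pfkfb3, P4ha1 and Hif1a lie highest and Pdk1, Egln1 and Ankrd37 lowest in the 4 h Jurkat groups of both genotypes; Eno2 runs from about 5 CPM untreated to 58.7 CPM in WT.

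Other cell-type markers were called in the same comparison, where 79.5% of all genes in WT and 78.5% in KO were called. A large share of these calls thus need not be particular to the markers. The summed level of 6 markers of type 2 conventional dendritic cells was 1683 to 1737 CPM in untreated WT and 855 to 919 CPM after 4 h with Jurkat cells, and 1741 to 1872 and then 1002 to 1071 CPM in KO, with all 6 called lower in WT and 5 in KO; none of the 6 was at 0. Clec10a, one of them, went from 161 to 12.7 CPM in WT. The sum of 8 monocyte or macrophage markers was 911 to 990.2 CPM untreated and 1483 to 1712 CPM with Jurkat cells in WT, and 7 were higher in each genotype. Stromal markers were higher for 6 of 7 in WT (546 to 626 and then 781 to 910.2 CPM) and 7 of 7 in KO (701 to 880.1 and then 1001 to 1247 CPM). B-lineage markers were higher for 5 of 6 in both genotypes, from 7.52 to 8.92 CPM in untreated WT to 15.4 to 18.9 CPM. Of 6 plasmacytoid markers 4 were higher and 2 lower in WT (2110 to 2160.4 and then 2939 to 3416 CPM), and 3 and 2 in KO. Of 6 dendritic markers 3 were higher and 3 lower in each genotype. Of 6 conventional type 1 markers 2 were higher and 3 lower in WT, and 2 and 4 in KO. Of 8 neutrophil markers 1 was higher and 3 lower in WT, and 2 and 3 in KO. The part of these shifts in the members' changes was not tested.

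With OVA at 4 h Slc2a6, Eno2, Slc16a3, Slc2a1 and Pgk1 rose and Pdk1 and Ndrg1 fell in both genotypes. In WT 20 members were called, 13 higher and 7 lower, against 23.5% of all genes (11.9% higher, 11.7% lower); under total counts the split was 9 to 8. In KO 10 were called, 7 higher and 3 lower, against 11.6% of all genes (5.94% higher, 5.69% lower). All 10 of these were among the WT calls, in the same direction, and 12 calls in WT and 5 in KO held under every alternative. Neither count was made over all genes. The KO and WT responses were not shown to differ: the test of the difference called 0 of 36 members by edgeR's quasi-likelihood test and 0 by DESeq2, and 1 member (Slc16a1) had an unadjusted p under 0.05. Over all genes that test called 0.0405%, all of them lower.

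Slc2a6 stood at 131, 133 and 125 CPM after OVA in WT and at 107, 101 and 107 CPM in KO, all above the untreated libraries of 62.4 to 75.7 CPM. Its log2 rise was 0.81 (SE 0.066, FDR 2.18e-10) in WT and 0.64 (SE 0.066, FDR 5.84e-08) in KO. Eno2 was at 10.1, 10.3 and 8.95 CPM in WT and at 8.90, 8.66 and 7.78 CPM in KO, again without overlap with untreated cells, with log2 rises of 0.92 and 0.63. Slc16a3 reached 15, 17.7 and 16.1 CPM in WT, a log2 rise of 0.50. These comparisons and those of Jurkat cells share their untreated libraries. Markers moved with OVA too: 6 of 8 monocyte or macrophage markers were higher in WT (sum 911 to 990.2 CPM untreated, 1254 to 1423 CPM with OVA) and 4 in KO (783 to 1002 and 1125 to 1176 CPM). Of 6 markers of type 2 conventional dendritic cells, 4 were lower and 1 higher in WT and 2 lower and 1 higher in KO. Of all genes 23.5% were called in WT and 11.6% in KO. No marker of either list was at 0, and the part of these shifts in the members' changes was not tested.

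OVA and Jurkat cells were also compared directly. Pfkfb3 was 207 ± 5.8 CPM after OVA against 203 ± 4.6 CPM untreated in WT, and 172 ± 2.8 against 176 ± 3.6 CPM in KO, not called in either. Ndrg1 fell with OVA, to 61.7, 63.7 and 64.4 CPM in WT (log2 -0.28, FDR 7.35e-05) and to 71.6, 72.1 and 70.9 CPM in KO (log2 -0.24, FDR 0.00102), but rose with Jurkat cells. Set directly against OVA at 4 h, Jurkat cells gave 34 called members in WT, 23 higher and 11 lower (77.5% of all genes called, 37.2% higher and 40.3% lower), and 32 in KO, 20 higher and 12 lower (76.4%, 36.3% higher and 40.1% lower; 31 members, 20 higher and 11 lower, without KO Jurkat 4 h replicate 2); under total counts the splits were 16 to 17 and 17 to 15. In that comparison Slc2a6 was higher by 2.10 and 2.26, Eno2 by 2.59 and 2.81, Pfkfb3 by 1.46 and 1.60 and Ndrg1 by 1.29 and 1.05 on the log2 scale in WT and KO, while Egln1 was at -1.28 and -1.26 and Pdk1 at -1.30 and -1.25.

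At 30 min more members were called with Jurkat cells than with OVA, and so were more of all genes. With Jurkat cells 13 members were called in WT, 9 higher and 4 lower (28.7% of all genes, 14.2% higher and 14.5% lower), and 9 in KO, 8 higher and 1 lower (17%, 8.72% higher and 8.26% lower). All 9 KO calls were WT calls in the same direction: Slc2a1, Slc2a6, Pgk1, Eno2, Ldhb, Slc16a1, Slc16a3 and Vegfa higher and Pfkfb4 lower. Shared calls were not counted over all genes. Calls of Slc2a1, Pgk1, Eno2, Ldhb and Pfkfb4 held under every alternative in both genotypes; in WT those of Slc2a6 and Slc16a3 were lost without WT Jurkat 30 min replicate 3. In KO, Vegfa was lost without KO Jurkat 30 min replicate 3, Slc16a3 without replicate 2 and Slc16a1 without replicate 1 of that group. Slc2a1 was at 57.4, 57.2 and 58.7 CPM in WT against 43.9 to 45.8 CPM untreated, a log2 rise of 0.36 (SE 0.049, FDR 3.19e-06). Eno2 was at 9.12, 9.15 and 7.96 CPM in WT and at 9.62, 7.84 and 7.16 CPM in KO, above all untreated libraries of its genotype. Vegfa was at 32.3, 33.1 and 33.6 CPM in WT (log2 0.52, FDR 0.000142) against 22.8 to 23.0 CPM untreated. Pfkfb3 and Pfkfb4 were lower in WT at this time, by 0.18 and 0.22 on the log2 scale, so Pfkfb3 was called lower at 30 min and higher at 4 h. Entries that mark T cells were already counted in the 30 min Jurkat libraries, as given below. The part of Jurkat RNA in these changes was not tested.

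With OVA at 30 min 4 members were called in WT, Slc16a1 higher and Ndrg1, Ankrd37 and P4ha1 lower (10.7% of all genes, 5.51% higher and 5.15% lower), and 4 in KO, Slc2a6 and Slc16a3 higher and Ndrg1 and P4ha1 lower (3.77%, 1.88% in each direction). P4ha1 was at 51.2, 52.3 and 51.5 CPM in WT and at 50.8, 53.1 and 51.8 CPM in KO, below all untreated libraries. Ndrg1 and P4ha1 were called in both genotypes, 50% of each list, a share that was not counted over all genes. The KO group held the shallowest library, replicate 3 at 9.73 M counts, against a median of 44.9 M over all libraries. Its part in the lower KO share was not tested. None of the 8 calls held under every alternative. The WT count fell to 0 without WT OVA 30 min replicate 1 and to 1 without WT untreated replicate 2 or replicate 3, and the KO count fell to 0 without KO OVA 30 min replicate 2.

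Entries that mark T cells, the lineage of Jurkat, were counted in the Jurkat libraries. Of 29 T-lineage markers tested, 23 were higher and 6 lower in WT after 4 h, and 20 and 7 in KO, where 38.9% of all genes were higher and 40.6% lower in WT and 37.5% and 41% in KO. The sum of the 14 T-lineage markers that lay under 1 CPM in untreated cells, chosen on that value, was 3.41, 3.34 and 3.37 CPM in untreated WT, 41.2, 42.0 and 40.0 CPM at 30 min and 116, 86.8 and 114 CPM at 4 h with Jurkat cells. In KO it was 3.17, 4.29 and 4.39 CPM, then 29.3, 29.3 and 19.1 CPM and then 64.4, 83.0 and 69.8 CPM. In the OVA libraries it was no higher than 4.44 CPM. The KO mean was 0.631 of the WT mean at 30 min and 0.685 of it at 4 h, and no KO library reached the WT libraries of the same time.

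Ldhb also rose at both times with Jurkat cells. It was at 3.14, 3.60 and 2.84 CPM in untreated WT, 9.63, 9.33 and 8 CPM after 30 min with Jurkat cells and 20.3, 15.9 and 18.8 CPM after 4 h. In KO it was at 4.24, 4.00 and 3.71 CPM, then 8.21, 7.91 and 6.53 CPM and then 10.5, 14.6 and 11.6 CPM. OVA left it at 2.76 to 3.51 CPM in WT and 3.24 to 4.21 CPM in KO, within the untreated range or just below it. Its KO level was 0.840 of the WT level at 30 min and 0.666 of it at 4 h, where the T-lineage sum was at 0.631 and 0.685. These ratios include the untreated signal, in which mean Ldhb was 3.98 CPM in KO and 3.19 CPM in WT. Within each 4 h group the libraries had the same order for Ldhb as for that sum. In KO at 4 h the highest of both was replicate 2, the library that stood apart. At 30 min the order differed in both genotypes. In KO it differed between replicates 1 and 2, nearly level in the sum at 29.25 and 29.28 CPM. The part of Jurkat RNA in the Ldhb counts was not tested.

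Copies of glycolytic genes, most of them known from germ cells, were called in both directions after 4 h with Jurkat cells: of 12 tested, 7 were higher and 4 lower in WT and 5 and 4 in KO, against 79.5% and 78.5% of all genes called. Those that fell were Eno3, Gapdhs, Pgam2 and Slc16a7, with Eno3, the muscle enolase, going from 26.8 to 18.7 CPM in WT. The 4 described next, named after their values were seen, were counted mainly in the Jurkat libraries. Aldoart2, an aldolase copy of the testis, was at 0 CPM in untreated WT, 3.54 CPM at 30 min and 14.1, 10 and 13.3 CPM at 4 h with Jurkat cells, and at 2.37 and 8.03 CPM in KO at those times. Aldoart1, a second such copy, was at 3.51 CPM (WT) and 2.04 CPM (KO) at 4 h, Pgk2 (the testis phosphoglycerate kinase) 2.29 and 1.35 CPM, and Eno1b, by its other entry in the table, 7.68 and 4.80 CPM. These 4 were lower in KO than in WT at 4 h with Jurkat cells. The log2 difference was 0.78 for Aldoart1, 0.64 for Aldoart2, 0.77 for Pgk2 and 0.68 for Eno1b. Since the 4 were named with their values known, these differences are no separate test. Of all 12 tested copies 5 were lower and 0 higher in KO in that condition, against 13.5% and 9.37% of all genes. How reads from Jurkat cells were treated is not given in the sources used here.

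**Figure D4:**
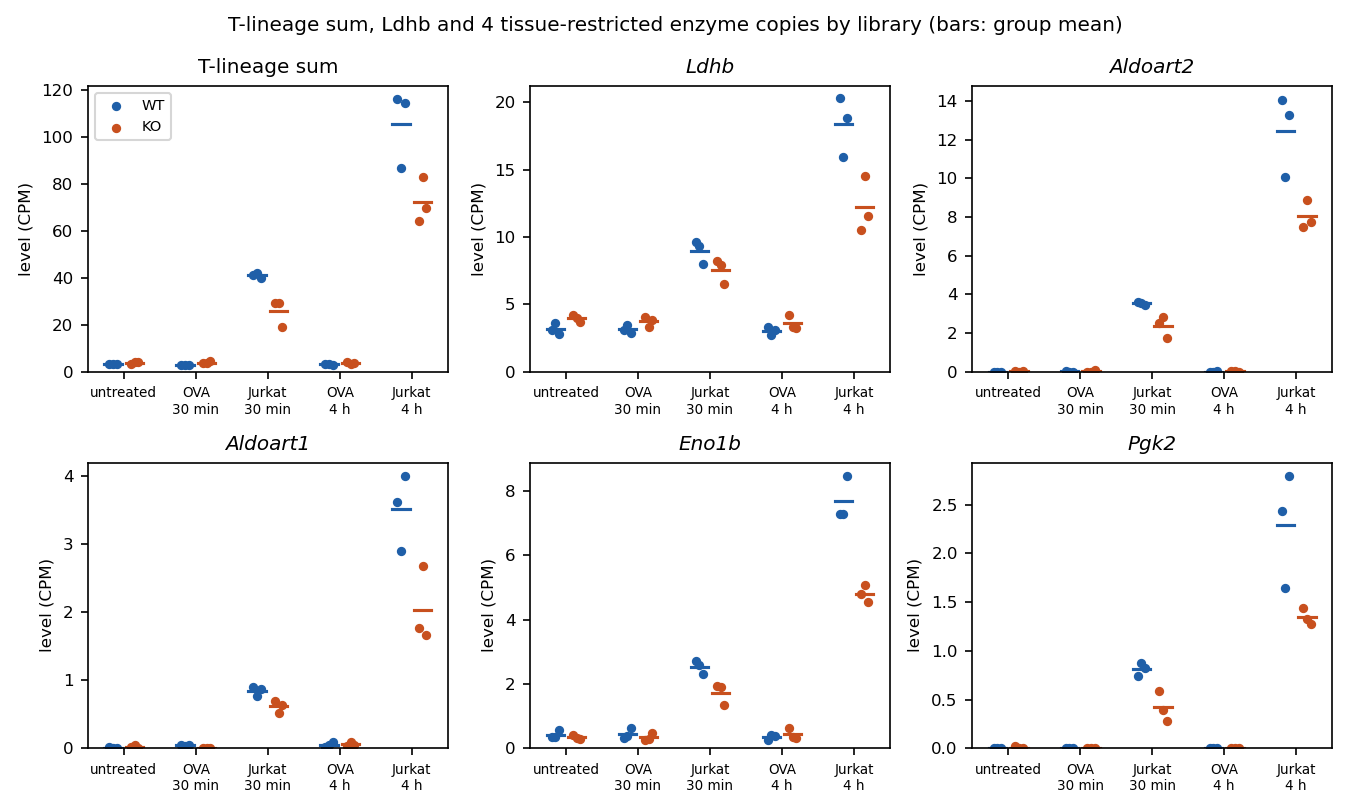
CPM in each library, by condition, of the summed T-lineage markers, Ldhb, Aldoart2, Aldoart1, Eno1b and Pgk2 (points: libraries; lines: group means; WT blue, KO orange). All 6 panels are low without Jurkat cells, higher at 30 min and highest at 4 h with them. At 4 h the KO libraries lie lower (T-lineage sum 64.4 to 83.0 CPM) than the WT libraries (86.8 to 116 CPM). The summed markers were chosen for lying under 1 CPM in untreated cells. The 4 enzyme copies were named after their values were seen, so this shared pattern is in part set by the choice.

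Differences between KO and WT were small, and their calls were mostly limited to single conditions. Of 36 members, 19 were called in at least 1 of the 5 conditions, 14 of them in 1 condition only, and 17 in none. No member was called in both directions, and these counts were not made over all genes. A missing call is not an absent difference. Over the 5 conditions the log2 difference ran from 0.12 to 0.32 for Vegfa, called in 2, and from -0.29 to -0.02 for Pfkp, called in 1. Untreated, 4 members were called, 3 higher and 1 lower in KO, against 9.97% of all genes (6% higher, 3.97% lower). With OVA at 30 min 6 were called, 5 higher and 1 lower, against 12.4% of all genes (6.25% higher, 6.13% lower). The KO group of that condition includes the shallowest library, replicate 3 at 9.73 M counts. Jurkat cells at 30 min gave 2 calls, both higher, against 9.25% (5.58% higher, 3.67% lower). OVA at 4 h gave 5, of which 3 were higher and 2 lower, against 12.6% (6.22% higher, 6.35% lower). Jurkat cells at 4 h gave 12, of which 4 were higher and 8 lower, against 22.9% (9.37% higher, 13.5% lower). In most conditions the members' share was thus close to that of all genes.

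Aldoc was the member called in all 5 conditions. It stood at 28.9, 29 and 27.7 CPM in untreated KO against 20.5, 22.8 and 23.8 CPM in untreated WT, and at 13.6, 13.8 and 13.4 against 11.3, 12 and 10.6 CPM after 4 h with Jurkat cells. The KO libraries lay above all WT libraries of the same condition in each of these, with log2 differences of 0.35 (SE 0.058, FDR 0.000136) untreated, 0.24 in both 30 min conditions, 0.29 with OVA at 4 h and 0.26 with Jurkat cells at 4 h. The call was lost without KO OVA 30 min replicate 1 or WT OVA 30 min replicate 3 in that condition, and without KO Jurkat 30 min replicate 3 in the other 30 min condition.

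Pfkfb3 was lower in KO in 4 of the 5 conditions. It was at 179, 172 and 175 CPM in untreated KO against 199.9, 200.0 and 208 CPM in WT, and at 175, 170.5 and 170.2 against 213, 207 and 201 CPM with OVA at 4 h. The log2 difference was -0.21 (SE 0.045, FDR 0.00273) untreated and -0.27 (SE 0.045, FDR 0.000121) with OVA at 4 h. The groups did not overlap in either condition. The difference was -0.18 with OVA at 30 min, lost without KO OVA 30 min replicate 1, and -0.12 with Jurkat cells at 4 h (FDR 0.0474), lost without any 1 of the KO Jurkat 4 h replicates 1, 2 and 3 or WT Jurkat 4 h replicate 2. Pfkm was higher in KO with OVA at 4 h, at 17.9, 16.8 and 17.6 against 14.1, 14.3 and 14.0 CPM (log2 0.30, FDR 0.000711), and Slc2a6 was lower there (log2 -0.30, FDR 0.00191).

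Vegfa was higher in KO untreated (30.1, 28.6 and 26.9 against 23.0, 22.8 and 23.0 CPM, log2 0.32, FDR 0.0352) and with Jurkat cells at 4 h (54.3, 61.7 and 57.2 against 50.9, 44.9 and 47.9 CPM, log2 0.27, FDR 0.0344). The untreated call was lost when any of KO untreated replicates 1 and 2 or WT untreated replicates 1, 2 and 3 was left out, and the 4 h call without replicate 2 or 3 of either Jurkat 4 h group. Slc16a1 was higher in untreated KO by 0.27 (FDR 0.013), lost without KO untreated replicate 1 or 3 or WT untreated replicate 3. With OVA at 30 min Pfkl, Aldoa, Aldoc, Tpi1 and Gapdh were higher in KO by 0.15 to 0.24 on the log2 scale; the count of 6 fell to 2 without KO OVA 30 min replicate 2, and no call of this condition held under every alternative. Ndrg1 was higher in KO with Jurkat cells at 30 min (84.2, 83.5 and 82.9 against 69.8, 72.1 and 72.5 CPM, log2 0.22, FDR 0.0028).

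With Jurkat cells at 4 h Pdk3, P4ha1, Pfkp, Hk1, Hk2, Pgk1, Pfkfb3 and Ldhb were lower and Aldoc, Pfkm, Egln1 and Vegfa higher in KO. Pdk3 was at 83.0, 71.7 and 79.8 CPM in KO against 96.9, 115 and 105 CPM in WT (log2 -0.43, SE 0.056, FDR 3.16e-06), P4ha1 at 154, 143 and 149 against 177, 202 and 173 CPM (log2 -0.31, SE 0.046, FDR 2.21e-05) and Pfkp at 504, 439.7 and 481 against 537, 634 and 569.6 CPM (log2 -0.29, SE 0.049, FDR 7.95e-05). None of the 3 overlapped between genotypes. Calls that held under every alternative were those of Aldoc, Hk1, Ldhb, P4ha1, Pdk3 and Pfkp. Hk2 was lost without replicate 2 of either Jurkat 4 h group, Pfkm without replicate 1 or 2 of either, and Egln1 without any Jurkat 4 h library but WT replicate 1. The count of 12 fell to 8 (2 higher, 6 lower) without KO Jurkat 4 h replicate 2 and to 7 without WT Jurkat 4 h replicate 2, and under total counts it was 14, split 9 higher to 5 lower.

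**Figure D5:**
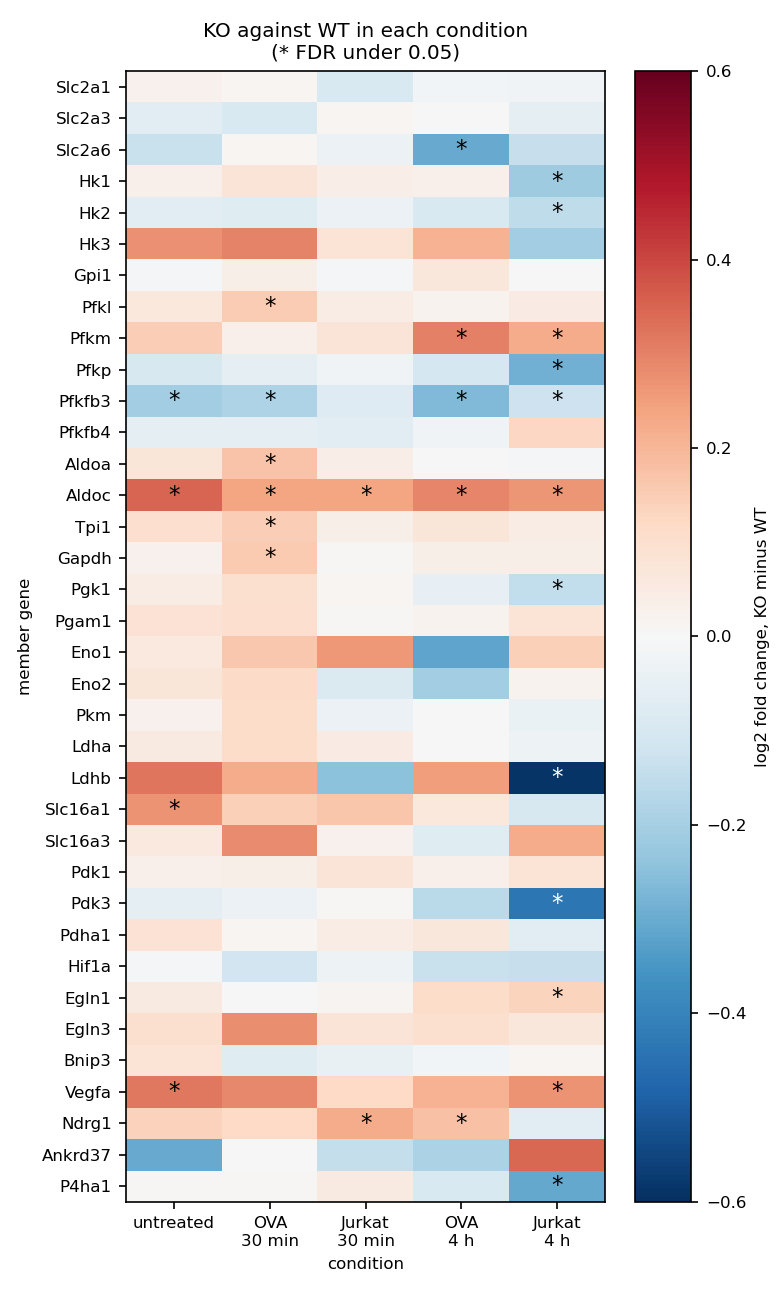
Log2 difference of KO from WT for each of the 36 members (vertical) in each of the 5 conditions (horizontal), as colour, with * where the adjusted p is under 0.05. Aldoc is marked in 5 of 5 columns and Pfkfb3 in 4 of 5, and the 4 h Jurkat column has 12 marks, 8 lower and 4 higher in KO under TMM scaling and 5 lower and 9 higher under total counts.

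The response to 4 h with Jurkat cells itself differed between genotypes for 6 members, against 4.26% of all genes (1.72% higher, 2.55% lower). The difference, KO response minus WT response on the log2 scale, was -0.91 for Ldhb (SE 0.18, FDR 0.00413), -0.38 for Pdk3 (SE 0.081, FDR 0.00688), -0.32 for P4ha1 (SE 0.067, FDR 0.00653), -0.37 for Slc16a1 (SE 0.10, FDR 0.0351), -0.24 for Hk1 (SE 0.062, FDR 0.024) and -0.19 for Pgk1 (SE 0.054, FDR 0.0397). All 6 were negative; under total counts the split was 1 positive and 3 negative. Ldhb and Pdk3 held under every alternative, and P4ha1 was lost with the compared groups alone (FDR 0.0648). Leaving out 1 library ended the call of Hk1 for KO untreated replicate 2, WT Jurkat 4 h replicate 2 and WT untreated replicate 1, and that of Pgk1 and Slc16a1 for 8 of the 12 libraries each, KO Jurkat 4 h replicates 1 and 3 among them. The count was 2 when only the groups compared were fitted. Without KO Jurkat 4 h replicate 2 it was 6, with Hk1 lost (FDR 0.0696) and Ankrd37 gained (0.84, FDR 0.0294). For Hk3 (-0.48, FDR 0.0618), Ankrd37 (0.65, FDR 0.0859) and Ndrg1 (-0.20, FDR 0.0867) the difference did not pass with all libraries.

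The T-lineage sum was also lower in the KO libraries of that condition. So were the 4 copies of glycolytic genes described above, which were named after their values were seen. At 4 h the KO level was 0.685 of the WT level for the T-lineage sum, 0.666 for Ldhb, 0.740 for Pdk3 and 0.807 for P4ha1. It was 0.864 for Hk1, 0.902 for Pgk1 and 0.934 for Slc16a1. Outside these 6 members Pfkp was at 0.818 and Vegfa at 1.20. Such ratios include the untreated signal. Above untreated cells the T-lineage sum rose by 102 CPM in WT and 68.4 CPM in KO. Ldhb rose by 15.2 and 8.24 CPM, and Pdk3 by 60.7 and 34.9 CPM. The part of a lower amount of Jurkat RNA in the differences of the 6 members was not tested. Jurkat RNA and the response of the dendritic cells cannot be told apart by entry in these counts.

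Markers of other cells differed between the genotypes in every condition. All 6 tested markers of basophils or mast cells were higher in KO in all 5 conditions, with a summed level without treatment of 21.5 to 27.8 CPM in WT libraries and 54.8 to 85.4 CPM in KO libraries, and 5 of 7 stromal markers were higher in untreated KO, with means of 582 and 798 CPM. Plasmacytoid markers were lower in KO, 3 of 6 untreated and 5 of 6 with Jurkat cells at 4 h. In that last condition 4 of 6 conventional type 1 and 4 of 8 neutrophil markers were lower too. With OVA at 4 h, 4 of 8 monocyte or macrophage markers were lower, against 6.35% of all genes. Of all genes 6% were higher and 3.97% lower in untreated KO, and 9.37% and 13.5% with Jurkat cells at 4 h. Erythroid markers summed to 0.511 and 0.556 CPM in untreated WT and KO, with most at 0. The part of these cells in the KO differences of Aldoc, Pfkfb3 and the other members was not tested.

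Other genes of the HIF pathway also moved in both directions. Of 42 genes listed, 41 were in the table and 40 tested. With Jurkat cells at 4 h 19 were higher and 14 lower in WT and 17 and 13 in KO, close to the share of all genes called (79.5% and 78.5%). With OVA at 4 h 7 and 7 were called in WT and 3 and 6 in KO, where 23.5% and 11.6% of all genes were called. Rab20, a small GTPase of phagosomes, rose from 1.46 to 13.5 CPM in WT (log2 3.21) and by 2.82 in KO. Cited2, a co-factor that limits HIF-1 by competing for its coactivator, rose from 56.9 to 347 CPM (log2 2.61) and by 2.41 in KO. Zfp395 fell from 35.2 to 3.70 CPM in WT (log2 -3.25), and Car9, the carbonic anhydrase often used as a marker of hypoxia, fell by 1.59 in WT and 1.53 in KO on the log2 scale. In untreated KO 6 genes were higher than in WT and 0 lower, against 6% and 3.97% of all genes. Lox, the collagen cross-linking lysyl oxidase, was at 42.2 against 28.4 CPM (log2 0.57). It is also made by stromal cells, whose markers were higher in the same libraries, and the part of those cells was not tested.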

How the data were processed

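RNA of 30 samples was made into libraries with the unstranded TruSeq RNA Library Prep Kit v2, per the labels. The authors deposited raw read counts per gene on mm10, per the file headers; the submitters' processing notes name STAR 2.5, Subread, featureCounts 1.5.0-p1 and DESeq2, without their settings. The annotation and the treatment of Jurkat reads, and of reads that match several genes or overlapping entries, were not stated.

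The deposited counts were fitted in edgeR 4.0.16 (R 4.3.3, limma 3.58.1) with TMM scaling, filterByExpr by group (14808 genes kept) and 1 mean per group over all 30 libraries, with 20 residual degrees of freedom. Contrasts were tested by the two-sided quasi-likelihood F test with Benjamini-Hochberg adjustment over all genes tested, and a gene was called at an adjusted p under 0.05. The standard error is the log2 difference divided by the square root of F. CPM use TMM-scaled library sizes; exon lengths for levels per kb and transcripts for shared 50-base words come from GENCODE vM21.

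The members and lists were chosen with earlier results of these data known. All 36 members may be named; of each other pathway list, up to 3 genes per direction and contrast were named, with an adjusted p under 0.05 and at least 5 CPM in the higher group, by largest log2 difference; of marker and tissue-restricted lists any gene, with its levels; Rubcn as the check of genotype. Alternatives were DESeq2 1.42.0 and its size factors, total counts, other filters, the compared groups alone, replicate blocks and leaving out each library. In data simulated for KO against WT untreated (14713 genes, 50 changed at each size), 68% of genes changed 1.25-fold, 90% at 1.5-fold and 100% at 2-fold and 3-fold were recovered, and 2.72% of calls were false. The simulated counts were drawn from the spread fitted to these libraries, with no library set apart. Genes at the lowest levels were not among those changed. Recovery in the real libraries may thus be lower.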

Additional observations from a re-analysis of the deposited data

Results flagged for a closer look

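The 6 members below were set apart because the test of the difference between genotypes in the response to 4 h with Jurkat cells passed (edgeR's quasi-likelihood test, Benjamini-Hochberg adjustment). Ldhb, the heart-type lactate dehydrogenase subunit, rose less in KO by -0.908 on the log2 scale (adjusted p 0.00413), with all 3 KO libraries below all 3 WT libraries after treatment. Pdk3, a pyruvate dehydrogenase kinase, differed by -0.378 (adjusted p 0.00688) and P4ha1, a collagen prolyl hydroxylase, by -0.317 (adjusted p 0.00653), again with no overlap between treated KO and WT libraries. Slc16a1, a lactate carrier, differed by -0.367 (adjusted p 0.0351): it was called higher in WT and not in KO. Hk1, a hexokinase, differed by -0.242 (adjusted p 0.024), lost without KO Jurkat 4 h replicate 2 (0.0696) and without 3 other libraries taken singly. Pgk1, phosphoglycerate kinase, differed by -0.193 (adjusted p 0.0397). The calls of Pgk1 and Slc16a1 were each lost for 8 of the 12 libraries left out in turn.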

How the results depend on the processing

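Of 8783 member values under other settings, 8455 kept their direction and side of the threshold, 218 lost a call, 94 gained one and 16 changed sign. All 16 arose under total counts, which shift all genes after 4 h with Jurkat cells. Against untreated WT these were Gapdh -0.0666, Hk1 -0.225, Pdha1 -0.283 and Slc16a1 -0.0163, and in KO Slc16a1 -0.321. Against OVA at 4 h they were Gapdh -0.101, Hk1 -0.0949, Pdha1 -0.176, Pgam1 -0.0669, Pkm -0.0644 and Slc16a1 -0.202 in WT, and Gapdh -0.0565, Hk1 -0.292, Pdha1 -0.271, Pkm -0.0613 and Slc16a1 -0.320 in KO.

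Counts of members called moved by over 1.5 times in few settings, and the cause was not tested. KO against WT with OVA at 30 min gave 10 with a stricter filter and 12 under total counts instead of 6; with OVA at 4 h it gave 10 with the compared groups alone instead of 5. OVA at 30 min in KO gave 1 with the compared groups alone and 2 with a replicate block across genotypes instead of 4. The genotype difference in the response to Jurkat cells at 4 h gave 2 with the compared groups alone instead of 6.

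Leaving out 1 library gave 2 to 3 calls for KO against WT untreated (2 without KO untreated replicate 1 or WT untreated replicate 3), 2 to 9 with OVA at 30 min (2 without KO OVA 30 min replicate 2), 1 to 2 with Jurkat cells at 30 min (1 without KO Jurkat 30 min replicate 3) and 7 to 12 with Jurkat cells at 4 h (7 without WT Jurkat 4 h replicate 2). OVA at 30 min gave 0 to 5 in WT (0 without WT OVA 30 min replicate 1) and 0 to 4 in KO (0 without KO OVA 30 min replicate 2).

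The labels do not say whether replicate numbers pair the libraries. Deviations of same-numbered libraries of a genotype correlated at a mean of 0.0511 (-0.306 to 0.601, 60 pairs). Over groups of both genotypes, 12 of 30 libraries correlated best with their own number. With so wide a range these values cannot exclude pairing. The replicate block changed no other count by over 1.5 times; a block within genotype was not run for KO against WT. The 3 libraries of a group and a shallowest library of 9.73 M counts (KO OVA 30 min replicate 3) limit what small differences can show.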

Other observations

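Of 33 genes listed for the pentose phosphate pathway, pyruvate entry and neighbouring steps, 32 were tested. After 4 h with Jurkat cells 12 were higher and 12 lower in WT, and 11 and 13 in KO, where 79.5% and 78.5% of all genes were called. With OVA at 4 h 1 was higher and 7 lower in WT, and 1 and 2 in KO, where 23.5% and 11.6% of all genes were called. Pgd, the second dehydrogenase of the oxidative pentose branch, rose from 138 to 386 CPM in WT (log2 1.49) and by 1.26 in KO. Rpe and Rpia, which interconvert pentose phosphates, were higher by 1.0 and 0.92 in WT and by 1.12 and 0.67 in KO on the log2 scale. Slc2a8, a further glucose transporter, was lower by log2 values of -1.87 in WT and -1.97 in KO, and Pdk2, a pyruvate dehydrogenase kinase, by -1.36 and -1.48. The KO response was smaller for Rpia (-0.26, adjusted p 0.0243) and Pgd (-0.22, adjusted p 0.032) by the test of the difference (edgeR's quasi-likelihood test, Benjamini-Hochberg adjustment). Taldo1, the transaldolase of the pentose branch, was lower in KO in all 5 conditions, by -0.22 untreated on the log2 scale (adjusted p 0.000337).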
